A study of Mus musculus with 24 samples.

Results

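The 10 genes described here are Trp53, which encodes the transcription factor p53, and 9 genes known as its targets: Cdkn1a, Mdm2, Ccng1, Bax, Bbc3, Phlda3, Eda2r, Zmat3 and Sesn1. They were taken by symbol from a table of read counts for 25229 genes, and 9 of the 10 passed the filter on low counts that left 12941 genes to test. The gene that did not pass was Eda2r. RNA was sequenced from ID8 Trp53−/− cells (ID8 P53 KO in the labels), a mouse ovarian cancer line in which the p53 gene has been knocked out, so that every group, controls included, lacked functional p53. The cells were treated for 6 days with the vehicle DMSO, with 2.5 μM AU-15330 (AU15330 in the labels), with 750 nM cisplatin, or with both drugs at these concentrations (the combination). The cisplatin concentration is that of the labels, and the methods of the study give a different one for these cells. Cisplatin is a platinum drug that crosslinks DNA, and AU-15330, a PROTAC, sends the SWI/SNF chromatin remodeling ATPases SMARCA4 and SMARCA2 to the proteasome. Each group held 6 libraries with replicate numbers 1 to 6. The labels do not say whether these came from separate cultures, so that p-values measure the spread between these libraries. Neither the edited exon nor whether the line is 1 clone was given in the sources used here.

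In cells with intact p53, DNA damage stabilizes the protein, which binds paired decamer motifs in DNA and activates genes of cell cycle arrest, DNA repair and apoptosis. One of its targets, Mdm2, encodes the ubiquitin ligase that sends p53 to degradation and closes a feedback loop. Many of these genes also respond to other transcription factors, to stress signaling and to growth state. p53 lowers cell cycle genes indirectly: p21, the product of Cdkn1a, inhibits cyclin-dependent kinases and so leaves the repressive DREAM complex on their promoters.

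Library totals ranged from 17592588 to 25260009 counted reads, and levels are given as CPM, counts scaled to library size with TMM factors. In these libraries 3 counts, the floor set by counting error alone, lay far below the level of the 9 tested genes. All 8 ovarian surface and mesothelial markers of the list passed the filter, although Krt7 had 0 reads in 3 AU-15330 libraries and 1 combination library. Their summed level was 3643 to 5418 CPM with DMSO and 4381 to 5034 CPM with cisplatin, but 1254 to 1380 CPM with AU-15330 and 1386 to 1568 CPM with the combination. From DMSO to AU-15330 the median of 7 of the 8 was lower: Krt19 went from 1611 to 5.72 CPM, Krt18 from 615 to 122 CPM, Msln from 536 to 118 CPM, Upk3b from 58.1 to 0.427 CPM and Krt7 from 1.28 to 0.0206 CPM. With DMSO Upk3b was at 15.1 and 13.9 CPM in replicates 2 and 3 and at 56.5 to 63.5 CPM in the others. Wt1 went from 836 to 635 CPM and Krt8 from 317 to 244 CPM, and Cdh2 was higher, at 113 and 223 CPM. Of 5 leukocyte markers only Cd68 passed, at a median of 10.6 CPM with DMSO and 35.2 CPM with AU-15330, and the pan-leukocyte gene Ptprc had a summed count of 4 to 11 reads over a group. Of 3 endothelial markers Pecam1 alone passed, with group medians of 0.431 to 10.1 CPM, and 0 of 4 muscle and adipose markers did. Whether these shifts had a part in the results below was not tested. In such bulk samples, fewer cells of a type and less RNA per cell cannot be told apart.

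The sequences before the transcription starts show which of these genes carry a p53 motif next to the start. RefSeq promoter windows of 250 bases before and 50 bases after a start (GRCm38.p6) were matched for 9 of the 10 genes, in 13 windows. The p53 decamer consensus, which reads the same on both strands, was found in 6 windows of 6 genes: Cdkn1a, Mdm2, Ccng1, Bax, Sesn1 and Trp53. Over all 32851 promoter windows of the same length, 8.36% held the decamer, and so did 9.55% of 27025 genes. The upstream Cdkn1a start had 2 decamers at most 13 bases apart, a pair seen in 0.0731% of all windows. These matches allowed no mismatch, describe letters and are not measured binding. A near match that directly follows GAACATGTCT in Cdkn1a, tgacatgttc, is therefore not in capitals below. The windows of Bbc3, Phlda3 and Eda2r held no decamer. The sequences below run 5′ to 3′ on the strand of the gene and end before the start, with the decamers in capitals. Cdkn1a is shown whole for its upstream start, because its difference from DMSO was the largest of the 9 tested genes in each treated group. The others are shown as the 50 bases around their decamer.

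Cdkn1a, chr17:29090729-29090978, plus strand: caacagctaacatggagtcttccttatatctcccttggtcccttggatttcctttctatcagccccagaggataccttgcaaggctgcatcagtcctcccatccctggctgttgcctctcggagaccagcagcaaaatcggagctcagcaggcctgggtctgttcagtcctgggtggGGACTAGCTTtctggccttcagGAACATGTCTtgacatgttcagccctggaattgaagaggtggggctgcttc
Mdm2, chr10:117710915-117710964, minus strand: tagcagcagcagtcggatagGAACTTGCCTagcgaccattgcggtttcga
Ccng1, chr11:40755442-40755491, minus strand: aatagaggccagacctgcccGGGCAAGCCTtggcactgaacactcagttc
Bax, chr7:45467070-45467119, minus strand: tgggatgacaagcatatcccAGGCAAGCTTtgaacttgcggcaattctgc
Sesn1, chr10:41887246-41887295, plus strand: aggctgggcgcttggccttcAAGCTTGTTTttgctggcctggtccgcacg
Trp53, chr11:69580264-69580313, plus strand: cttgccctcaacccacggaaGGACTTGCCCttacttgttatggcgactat

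The Cdkn1a decamers lay at positions −73 to −64 and −51 to −42 from the upstream start (29090979). The window of its downstream start (29093769), which is not printed, held none. Those of Mdm2 (−186 to −177), Ccng1 (−185 to −176), Bax (−201 to −192) and Sesn1 (−173 to −164) lay further upstream than that of Trp53 (−75 to −66). The Sesn1 decamer lay before a start inside the gene (41887439), and the window of the upstream start (41810574) held none. As the levels below show, genes with a decamer in the window went up, went down or stayed nearly level.

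**Figure D1:**
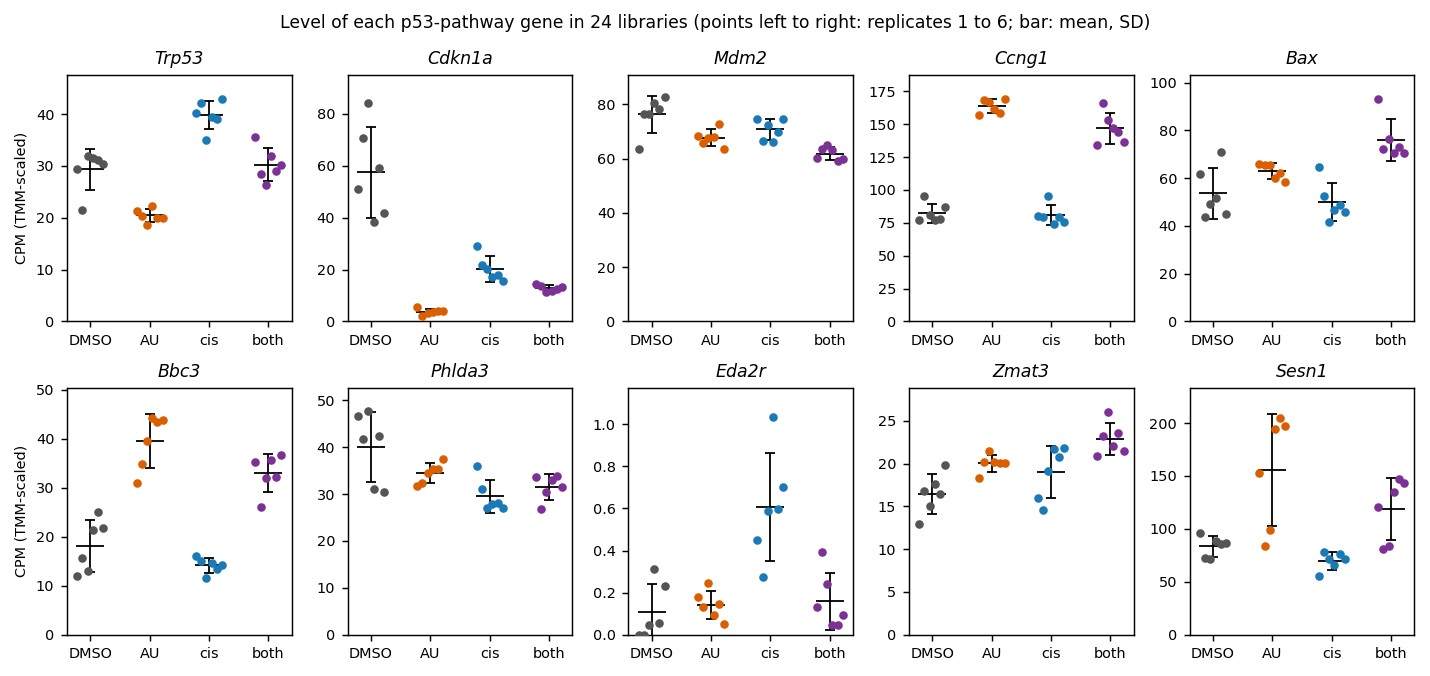
Level of each of the 10 genes in the 24 libraries, as TMM-scaled CPM on a linear axis that starts at 0 in each panel (AU, AU-15330; cis, cisplatin; both, the combination). Points are replicates 1 to 6 from left to right, and the bar gives the mean and SD (n = 6). Cdkn1a was highest with DMSO, at 38.3 to 84.0 CPM, and lowest with AU-15330, at 2.25 to 5.40 CPM, whereas Ccng1 and Bbc3 were highest in the groups that received AU-15330.

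The genes did not move as 1 block. Of the 9 tested genes, cisplatin alone raised Trp53 and lowered Cdkn1a, Phlda3 and Bbc3, so that 4 were called against a background of 51.7% of all tested genes (26.0% higher and 25.7% lower). In replicates 4 to 6 alone 8 were called, against 52.9%. AU-15330 alone raised Ccng1, Bbc3, Sesn1 and Zmat3 and lowered Cdkn1a, Trp53 and Mdm2, 7 genes against a background of 73.4% (36.2% higher and 37.2% lower). AU-15330 added to cisplatin raised the same 4 genes plus Bax and lowered the same 3, 8 genes against 68.1% (35.4% higher and 32.7% lower). Cisplatin added to AU-15330 raised Cdkn1a, Trp53 and Bax and lowered none at the threshold, 3 genes against 41.7% (22.2% higher and 19.5% lower). A fit with the replicate number as a block added lower Ccng1 and lower Sesn1, with 47.8% of all tested genes called. With so many genes called in each comparison, these shares are not read as a property of the 9 genes. Comparisons that share a group, such as DMSO, are not independent. The median log2 fold change of the 9 was −0.11 with cisplatin, against −0.00413 over all tested genes, and 0.23 with AU-15330, against −0.00301. Calls here and below are edgeR quasi-likelihood tests with Benjamini-Hochberg adjustment over all tested genes, at an adjusted p under 0.05.

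Trp53 mRNA was still made, although its gene is knocked out. Its level was 21.6 to 31.9 CPM (median 30.8) with DMSO, 35.1 to 42.9 CPM (median 39.9) with cisplatin, 18.7 to 22.2 CPM (median 20.2) with AU-15330 and 26.3 to 35.5 CPM (median 29.5) with the combination. All cisplatin libraries lay above all DMSO libraries, and the AU-15330 group overlapped DMSO only through 1 DMSO library at 21.6 CPM. The counts check neither the genotype nor the protein, because there was no wild-type library and a disrupted gene can be transcribed. Trp53 rose with cisplatin by 0.44 ± 0.09 (log2 fold change ± SE, adjusted p = 1.12e-04) and by 0.56 ± 0.09 when cisplatin was added to AU-15330 (adjusted p = 9.93e-06). It dropped by 0.52 on the log2 scale with AU-15330 (SE 0.09, adjusted p = 6.56e-06) and by 0.40 when AU-15330 was added to cisplatin (SE 0.08, adjusted p = 1.84e-04). The drugs thus moved the transcript in opposite directions, and combination and DMSO were not told apart (0.04 ± 0.09, adjusted p = 0.670, 95% interval −0.14 to 0.22). The gene lies on chromosome 11 from 69580359 to 69591873 (plus strand, GRCm38, GENCODE M21). A processed pseudogene on chromosome 17, Trp53-ps, is not listed in the count table, and how the authors' counting treated reads that match both is not given.

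Cdkn1a, which encodes the cyclin-dependent kinase inhibitor p21, had the largest difference from DMSO of the 9 genes in each treated group. With DMSO it was at 38.3 to 84.0 CPM (median 55.1), with cisplatin at 15.5 to 29.2 CPM (median 18.9), with the combination at 11.2 to 14.4 CPM (median 12.8) and with AU-15330 at 2.25 to 5.40 CPM (median 3.75). No 2 of the 4 groups overlapped, so the order was DMSO, cisplatin, combination and AU-15330 in every library. The lowest AU-15330 library still held 51 reads. Cdkn1a fell by 1.504 on the log2 scale with cisplatin (SE 0.18, adjusted p = 1.09e-07), to 0.352 of the DMSO level. It fell by 3.94 with AU-15330 (SE 0.21, adjusted p = 2.90e-15), to 0.0649 of the DMSO level. AU-15330 added to cisplatin lowered it further by 0.67 (log2 fold change −0.67 ± 0.18, adjusted p = 0.00204).

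The direction of the cisplatin effect on Cdkn1a depended on AU-15330. On its own cisplatin lowered Cdkn1a, whereas in cells that also received AU-15330 it raised the gene 3.41-fold, with no overlap of the groups in either comparison (log2 fold change 1.77 ± 0.20, adjusted p = 1.25e-07). The interaction, the cisplatin effect with AU-15330 minus that without it, was 3.27 ± 0.27 on the log2 scale (95% interval 2.71 to 3.84, adjusted p = 7.48e-10). When 1 replicate at a time was left out it remained between 3.08 and 3.52. The combination nevertheless stayed below DMSO by 2.18 on the log2 scale (log2 fold change −2.18 ± 0.18, adjusted p = 5.73e-11). In the fit of all libraries without a block, Cdkn1a was the only one of the 9 genes with a called interaction, against 33.7% of all tested genes (17.9% higher and 15.8% lower). For the other 8 the interaction was between −0.13 and 0.37, with Bax at the upper end (0.37 ± 0.15, adjusted p = 0.0634, 95% interval 0.05 to 0.69). The Bax interaction was called with the replicate number as a block (0.36, adjusted p = 0.0205) and without replicate 2 (0.46, adjusted p = 0.0447), and that of Bbc3 in replicates 4 to 6 alone (0.34, adjusted p = 0.0413). Cdkn1a lies on chromosome 17 from 29090976 to 29100727 (plus strand), and 273 bases of its exons overlap an unnamed antisense model, AC167363.2. The library kit keeps strand, but the strand setting of the count was not given, so antisense reads could be included.

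**Figure D2:**
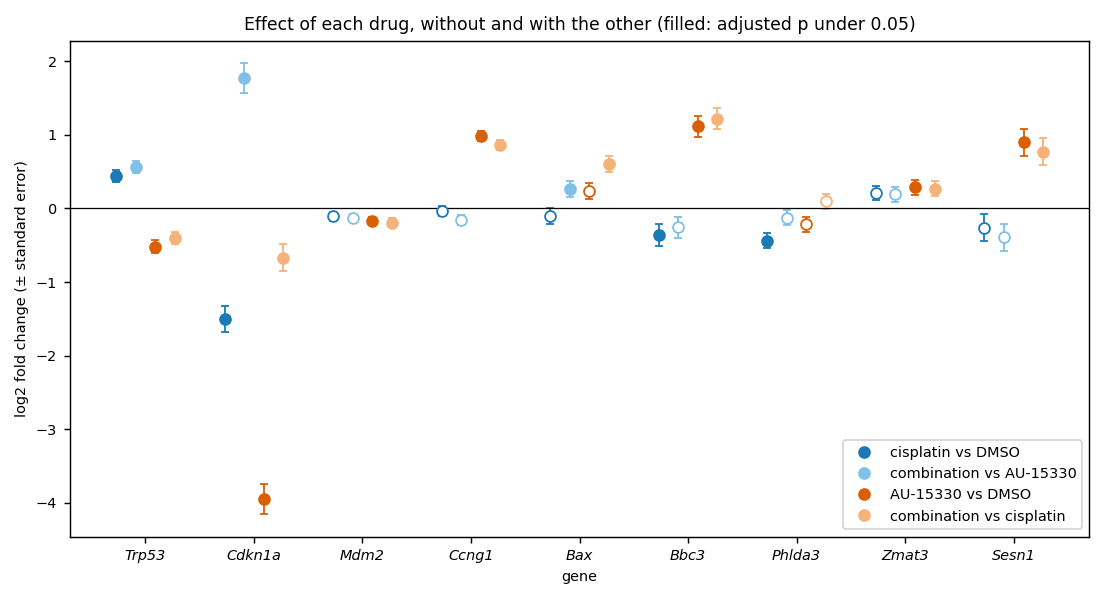
Log2 fold change (± SE) of the 9 tested genes for cisplatin without and with AU-15330 (blue) and for AU-15330 without and with cisplatin (orange). Filled points passed an adjusted p under 0.05 (edgeR), and open points did not. For Cdkn1a the cisplatin points lay on opposite sides of 0, at −1.504 and 1.77, while for Ccng1, Bbc3 and Sesn1 both AU-15330 points lay between 0.77 and 1.22.

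The listed DREAM target genes were mostly higher in each treated group than with DMSO. Cdkn1a was lower in each of these groups, and whether it had a part was not tested. All 18 listed DREAM target genes, which serve DNA replication and mitosis, rose with cisplatin (median log2 fold change 2.69), where 26.0% of all tested genes were called higher. With AU-15330 17 of 18 rose (median 1.03), against 36.2% of all tested genes, and with the combination against DMSO 18 of 18 did (median 2.86), against 36.8%. Brca1, of homologous recombination, rose with cisplatin by 3.03 ± 0.12 (adjusted p = 4.37e-17), and Ccnb1, the mitotic cyclin B1, by 2.94 ± 0.24 (adjusted p = 1.66e-10). With AU-15330 alone large increases were those of Brca1 (2.13 ± 0.11, adjusted p = 5.05e-15) and the replicative helicase subunit Mcm5 (1.92 ± 0.17, adjusted p = 7.75e-11). AU-15330 added to cisplatin raised 6 of 18 and lowered none, a share near the 35.4% of all tested genes called higher. The largest increases were Mcm5 (1.24 ± 0.16, adjusted p = 1.20e-07), Mcm2 (0.84 ± 0.11, adjusted p = 2.63e-07) and Brca1 (0.77 ± 0.10, adjusted p = 2.53e-07).

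In single libraries the order of the groups was not the inverse of that of Cdkn1a. The mean log2 CPM of the 18 genes was 2.86 to 3.98 with DMSO, 4.08 to 5.31 with AU-15330, 5.88 to 6.37 with cisplatin and 6.26 to 6.66 with the combination. Cdkn1a was lowest with AU-15330, yet the cell cycle genes were highest in the groups that received cisplatin. Among the DMSO libraries, those with the most Cdkn1a (70.6 and 84.0 CPM) had the highest mean of these genes (3.69 and 3.98), and those with the least (38.3 and 41.6 CPM) had the lowest (2.92 and 2.86). The AU-15330 and cisplatin groups did not share this order. With AU-15330 replicate 1 was highest for both, but replicates 2 and 3 had the least Cdkn1a (2.25 and 3.08 CPM) and the next highest means (4.82 and 4.39). With cisplatin replicate 1 was again highest for both, but replicates 2 and 3 had the next most Cdkn1a (21.9 and 20.1 CPM) and the lowest means (5.94 and 5.88). The combination was closer to the DMSO order. Its replicates 1, 2 and 6 had the most Cdkn1a (14.4, 13.6 and 13.2 CPM) and the highest means (6.66, 6.37 and 6.40). Mki67, a marker of cycling cells, went from 30.2 to 83.2 CPM with DMSO to 250 to 375 CPM with cisplatin, and was at 65.5 to 163 CPM with AU-15330 and 272 to 379 CPM with the combination. The groups with cisplatin lay above those without it, and AU-15330 overlapped DMSO. Cisplatin added to AU-15330 raised Cdkn1a and all 18 DREAM genes (median log2 fold change 1.85), against 22.2% of all tested genes. The interaction was negative and called for 8 of the 18, against 15.8% of all tested genes.

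**Figure D3:**
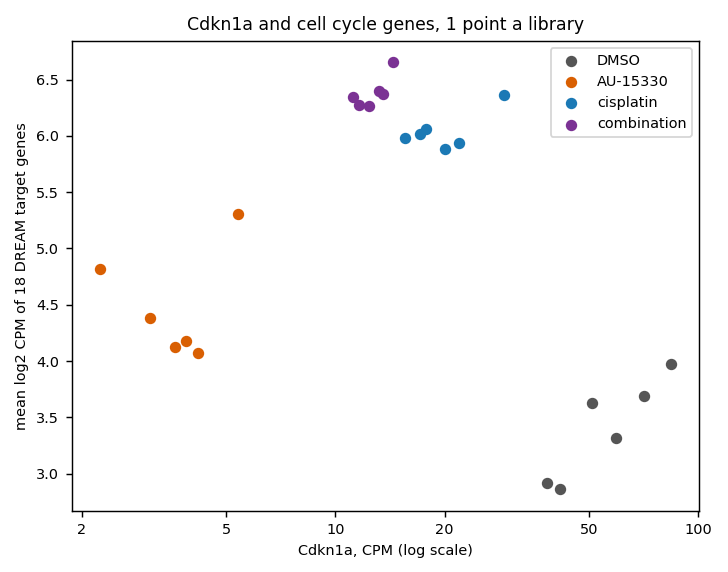
Cdkn1a (CPM, log axis) against the mean log2 CPM of 18 DREAM target genes, 1 point a library and 6 a group. The groups form separate clusters, with AU-15330 lowest for Cdkn1a and both cisplatin-treated groups, at 5.88 to 6.66, highest for the DREAM genes.

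The genes of feedback on p53 differed from each other. Mdm2 (chromosome 10, 117688875 to 117710758, minus strand) was nearly level. Its range was 63.3 to 82.7 CPM (median 77.4) with DMSO, 66.2 to 74.7 CPM (median 71.2) with cisplatin, 63.5 to 72.7 CPM (median 67.9) with AU-15330 and 59.1 to 64.9 CPM (median 61.8) with the combination. All groups overlapped each other apart from cisplatin and combination. Mdm2 was lower with the combination than with DMSO (log2 fold change −0.30 ± 0.06, adjusted p = 5.56e-05), than with cisplatin (−0.19 ± 0.06, adjusted p = 0.00515), and lower with AU-15330 than with DMSO (−0.17 ± 0.06, adjusted p = 0.0110). With scaling by total counts the calls against cisplatin (−0.13, adjusted p = 0.0728) and for AU-15330 (−0.04, adjusted p = 0.536) were lost. The latter was also lost without replicate 6 (adjusted p = 0.0918) and had the opposite sign between the libraries numbered 1 (0.11). Cisplatin against DMSO gave −0.11 ± 0.06 (adjusted p = 0.126, 95% interval −0.23 to 0.01), so an increase of the size seen for Trp53 lay outside the interval. Without replicate 1 this decrease passed the threshold (−0.19, adjusted p = 0.00404, edgeR).

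Ccng1, which encodes cyclin G1, an adaptor of a phosphatase that acts on MDM2, went with AU-15330. The gene lies on chromosome 11 from 40748552 to 40755311 (minus strand). It was at 77.1 to 95.1 CPM (median 79.4) with DMSO and 74.4 to 95.2 CPM (median 79.5) with cisplatin. With AU-15330 it was at 157 to 169 CPM (median 164) and with the combination at 134 to 166 CPM (median 146). The groups with AU-15330 lay wholly above those without it. Ccng1 rose 1.99-fold with AU-15330 (log2 fold change 0.99 ± 0.07, adjusted p = 7.63e-13) and 1.82-fold when AU-15330 was added to cisplatin (0.86 ± 0.07, adjusted p = 1.52e-11). Cisplatin alone left it at −0.03 ± 0.07 (adjusted p = 0.740, 95% interval −0.17 to 0.11). With cisplatin added to AU-15330 it was lower but overlapped (−0.16 ± 0.07, adjusted p = 0.0601), a difference that passed with the replicate number as a block (−0.16, adjusted p = 0.0259).

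Of the genes of cell death, Bbc3 was raised by AU-15330 both alone and on top of cisplatin. It encodes PUMA, a BH3-only protein that starts apoptosis at mitochondria, and lies on chromosome 7 from 16308393 to 16318205 (plus strand). Its level was 12.1 to 25.0 CPM (median 18.5) with DMSO, 11.5 to 16.1 CPM (median 14.4) with cisplatin, 30.9 to 44.3 CPM (median 41.5) with AU-15330 and 26.1 to 36.6 CPM (median 33.7) with the combination. Each library with AU-15330 was above each library without it. Bbc3 rose 2.17-fold with AU-15330 (log2 fold change 1.12 ± 0.14, adjusted p = 1.17e-07) and 2.33-fold on top of cisplatin (1.22 ± 0.14, adjusted p = 3.51e-08). Cisplatin alone lowered it slightly (−0.36 ± 0.15, adjusted p = 0.0388), but not within each of 3 sets of replicate numbers (1, 2 and 3, 4 to 6), which were formed from earlier results of these data and are not in the labels. The difference was 0.41 between the libraries numbered 1, −0.11 in numbers 2 and 3 and −0.69 in numbers 4 to 6. That call was lost without replicate 3, 4, 5 or 6 (adjusted p up to 0.217).

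Bax, the pore-forming protein that acts downstream of PUMA, was highest with both drugs. It was at 43.9 to 70.99 CPM (median 50.3) with DMSO, 41.5 to 64.8 CPM (median 47.7) with cisplatin, 58.2 to 65.9 CPM (median 64.0) with AU-15330 and 70.4 to 93.1 CPM (median 72.6) with the combination. The combination libraries lay above all cisplatin and all AU-15330 libraries and overlapped DMSO through 1 library. AU-15330 on top of cisplatin raised Bax 1.52-fold (log2 fold change 0.60 ± 0.11, adjusted p = 2.32e-05), and the combination exceeded DMSO by 0.50 ± 0.11 (adjusted p = 2.02e-04). Neither drug alone passed the threshold: AU-15330 gave 0.23 ± 0.11 (adjusted p = 0.0575, 95% interval 0.0051 to 0.46; 0.0357 and 0.0121 without replicates 1 and 5) and cisplatin −0.10 ± 0.11 (adjusted p = 0.446, 95% interval −0.33 to 0.12). Combination against AU-15330 only just passed (0.27 ± 0.11, adjusted p = 0.0480) and failed when any 1 replicate was left out (adjusted p = 0.0600 to 0.164). Bax lies on chromosome 7 from 45461697 to 45466898 (minus strand), and its exons share 192 bases with another protein-coding model of the same strand, Gm45808, which is not listed in the count table.

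Phlda3 (chromosome 1, 135766119 to 135769136, plus strand), a repressor of the survival kinase AKT, was at 30.5 to 47.7 CPM (median 42.1) with DMSO, 26.97 to 36.0 CPM (median 27.99) with cisplatin, 31.8 to 37.5 CPM (median 34.9) with AU-15330 and 26.7 to 33.8 CPM (median 32.2) with the combination. All groups overlapped DMSO. Phlda3 fell by 0.44 on the log2 scale with cisplatin (SE 0.10, adjusted p = 7.97e-04), and the combination was below DMSO (−0.34 ± 0.10, adjusted p = 0.00387), by −0.47 between the libraries numbered 1, −0.65 in numbers 2 and 3 and −0.08 in numbers 4 to 6. AU-15330 gave −0.21 ± 0.10 (adjusted p = 0.0601), which passed without replicate 4 (adjusted p = 0.0267) or 6 (adjusted p = 0.0139). The call for the combination was lost with scaling by total counts (−0.20, adjusted p = 0.0774).

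Eda2r (chromosome X, 97333840 to 97377216, minus strand), the receptor for ectodysplasin A2 in the tumor necrosis factor receptor family, was close to the detection floor. It had 0, 0, 1, 7, 1 and 5 reads in DMSO replicates 1 to 6, and 10, 6, 13, 25, 15 and 17 reads with cisplatin. The corresponding counts were 4, 3, 6, 2, 3 and 1 with AU-15330, and 3, 9, 5, 1, 1 and 2 with the combination. In total the gene had 86 reads with cisplatin against 14 to 21 in each other group, and the cisplatin range overlapped DMSO and the combination. It did not pass the filter, so it has no call here. Without the filter edgeR gave 2.33 ± 0.55 for cisplatin against DMSO (adjusted p = 9.99e-04) and −1.92 ± 0.51 for the combination against cisplatin (adjusted p = 0.00217), values that depend on the handling of counts near 0. On top of AU-15330 an increase with cisplatin was not detectable at this depth (0.10 ± 0.61, adjusted p = 0.985), and the interaction was −2.24 ± 0.84 (adjusted p = 0.0586). The DESeq2 Wald test put the interaction at −2.31 ± 0.89, past the threshold (adjusted p = 0.0322).

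Zmat3 (chromosome 3, 32334792 to 32366014, minus strand), a zinc finger protein that binds RNA and regulates splicing, was at 12.9 to 19.8 CPM (median 16.6) with DMSO, 14.6 to 21.8 CPM (median 19.97) with cisplatin, 18.3 to 21.5 CPM (median 20.1) with AU-15330 and 20.9 to 26.1 CPM (median 22.6) with the combination. Only DMSO and combination did not overlap. Zmat3 rose with AU-15330 by 0.28 ± 0.10 (adjusted p = 0.0135, and 0.1002 in replicates 4 to 6 alone) and was higher with the combination than with DMSO by 0.47 ± 0.10 (adjusted p = 1.46e-04). AU-15330 on top of cisplatin gave 0.27 ± 0.10 (adjusted p = 0.0199), a call lost without replicate 2 (adjusted p = 0.106) or 3 (adjusted p = 0.0919) and in replicates 4 to 6 alone (0.03, adjusted p = 0.733). Cisplatin alone gave 0.21 ± 0.10 (adjusted p = 0.0853, 95% interval −0.00111 to 0.42).

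Sesn1 (chromosome 10, 41809935 to 41908424, plus strand), a sestrin that restrains the growth kinase complex mTORC1 and protects from oxidative stress, rose with AU-15330 to an extent that differed between libraries. With DMSO it was at 71.5 to 95.9 CPM (median 86.3) and with cisplatin at 55.1 to 78.0 CPM (median 71.4). With AU-15330 it was at 84.2 and 98.5 CPM in replicates 2 and 3 and at 153, 195, 204 and 197 CPM in replicates 1, 4, 5 and 6. With the combination it was at 81.2 and 83.7 CPM in replicates 2 and 3 and at 121, 135, 147 and 144 CPM in the others. The same 2 replicate numbers were thus lowest in both groups that received AU-15330. Over all libraries Sesn1 rose 1.86-fold with AU-15330 (log2 fold change 0.90 ± 0.18, adjusted p = 1.09e-04) and 1.70-fold on top of cisplatin (0.77 ± 0.18, adjusted p = 6.70e-04). Within replicates 2 and 3 the differences were 0.34 and 0.14, and within replicates 4 to 6 they were 1.19 and 1.00. Cisplatin alone gave −0.26 ± 0.18 against DMSO (adjusted p = 0.244), and the combination against AU-15330 gave −0.39 ± 0.18 (adjusted p = 0.0898). The labels name no batch that would set these numbers apart.

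**Figure D4:**
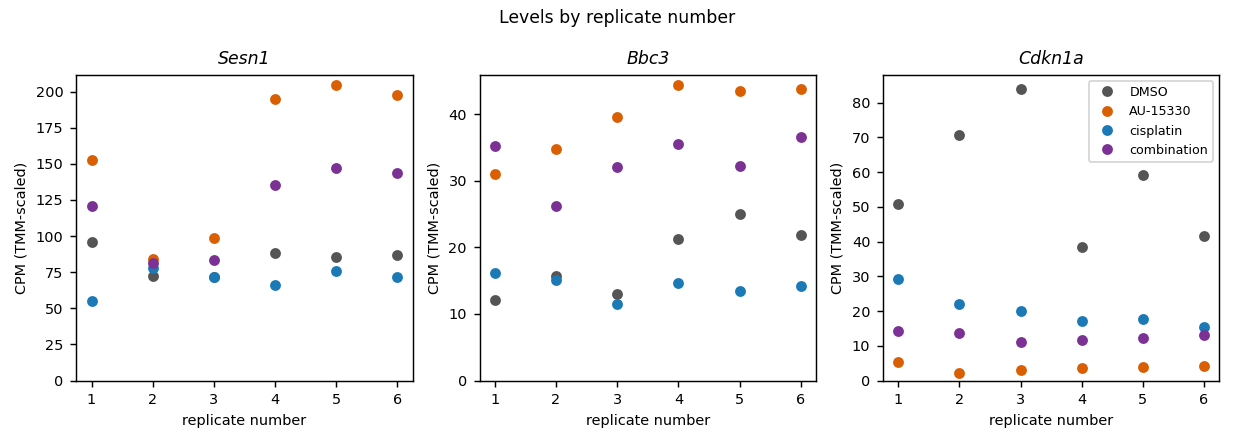
Sesn1, Bbc3 and Cdkn1a (CPM, linear axes from 0) by replicate number, with 1 point for each treatment. Sesn1 in replicates 2 and 3 stayed between 71.3 and 98.5 CPM in all 4 groups, whereas replicates 4 to 6 reached 195 to 204 CPM with AU-15330, and Cdkn1a kept the same order of groups in all 6 numbers.

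With the combination against DMSO, Ccng1, Bbc3, Bax, Sesn1 and Zmat3 rose and Cdkn1a, Phlda3 and Mdm2 fell, 8 of 9 genes against a background of 73.3% (36.8% higher and 36.5% lower). For Ccng1 and Bbc3 the log2 fold changes were 0.83 ± 0.07 and 0.86 ± 0.14 (adjusted p = 2.46e-11 and 7.02e-06), and for Sesn1 0.51 ± 0.18 (adjusted p = 0.0159). Sesn1 lost this call without replicate 5 or 6 (adjusted p = 0.0607 and 0.0563). For cisplatin added to AU-15330, where same-numbered libraries deviated together, a fit with the replicate number as a block called 5 of 9 genes instead of 3, and 47.8% of all tested genes instead of 41.7%. It added lower Ccng1 and lower Sesn1 (−0.37, adjusted p = 0.0404).

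Per length of transcript, as RPKM (reads per kilobase, scaled by depth as CPM are), the 9 tested genes spanned a wide range. With DMSO the mean level was highest for Bax, at 34.1 ± 6.74 RPKM (mean ± SD, n = 6), followed by Phlda3 (25.7 ± 4.81), Ccng1 (23.5 ± 2.06), Sesn1 (20.95 ± 2.41), Cdkn1a (16.2 ± 4.94) and Mdm2 (15 ± 1.33). Bbc3 (8.55 ± 2.49), Trp53 (7.25 ± 0.966) and Zmat3 (1.44 ± 0.204) were lower, and Eda2r was at 0.0183 ± 0.0225. With AU-15330 Cdkn1a was at 1.05 ± 0.299 RPKM, below all other tested members of the group, and Ccng1, at 46.6 ± 1.47, was the highest. Lengths are those of all exons joined in GENCODE M21, which may differ from the authors' annotation.

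Other known p53 targets were called in both directions. Of 33 further target genes 31 were tested, and Pmaip1 and Trp53cor1 were not. With cisplatin 9 rose and 9 fell (median log2 fold change −0.04; 11 called in all without replicate 2), with AU-15330 9 rose and 17 fell (median −0.33), and on top of cisplatin AU-15330 raised 9 and lowered 14 (median −0.06, against 0.04 over all tested genes). The combination against DMSO gave 10 higher and 14 lower, and cisplatin on top of AU-15330 11 higher and 5 lower. The 18, 26, 23, 24 and 16 called genes of these comparisons stand against 51.7%, 73.4%, 68.1%, 73.3% and 41.7% of all tested genes.

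Among these 31 genes the largest increase with cisplatin was that of Gtse1, a protein of late cell cycle phases that binds p53, from 4.30 to 7.91 CPM (median 5.38) with DMSO to 37.4 to 53.1 CPM (median 42.7) with no overlap (log2 fold change 2.97 ± 0.22, adjusted p = 1.61e-11). Fas, the death receptor, had 0 to 8 reads in DMSO libraries and 23 to 44 with cisplatin (2.62 ± 0.48, adjusted p = 5.13e-05). It had 8 to 32 reads with AU-15330 (1.67 ± 0.51, adjusted p = 0.00523). Pidd1, a scaffold for caspase activation after DNA damage, rose with each drug, by 1.43 ± 0.16 with cisplatin and 1.46 ± 0.16 with AU-15330 (adjusted p = 3.02e-08 and 5.81e-09). With cisplatin Ddit4, an inhibitor of mTORC1, fell by 0.79 on the log2 scale (SE 0.10, adjusted p = 2.56e-07). The antiproliferative gene Btg2 fell by 0.60 (SE 0.11, adjusted p = 3.79e-05), and Gdf15, a stress cytokine, by 0.71 (SE 0.25, adjusted p = 0.0217).

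Losses with AU-15330 were larger. Gdf15 went from 60 to 368 reads per library with DMSO to 0 to 5 reads with AU-15330, and from 121 to 193 reads with cisplatin to 1 to 8 with the combination, with no overlap in either comparison. With counts this low the fitted sizes are uncertain ( log2 fold changes −6.16 ± 0.40 and −5.21 ± 0.39, adjusted p = 2.58e-13 and 7.84e-12). Trp53inp1, an autophagy and stress protein, was at 117 to 232 CPM with DMSO and 22.6 to 25.0 CPM with AU-15330 (−2.85 ± 0.14, adjusted p = 3.98e-16), and on top of cisplatin AU-15330 lowered it by a log2 fold change of −2.49 ± 0.13 (adjusted p = 7.43e-15). Btg2 was at 237 to 343 CPM with DMSO and 46.4 to 64.3 CPM with AU-15330 (−2.43 ± 0.11, adjusted p = 1.94e-16). Ak1, an adenylate kinase, was lower with the combination than with cisplatin (−2.29 ± 0.24, adjusted p = 5.77e-09). Higher with AU-15330 were Dcxr, a carbonyl reductase (1.39 ± 0.15 alone and 1.40 ± 0.16 on top of cisplatin, adjusted p = 1.06e-08 and 1.49e-08), the death receptor Tnfrsf10b (1.02 ± 0.13 on top of cisplatin, adjusted p = 9.99e-08) and the ribonucleotide reductase subunit Rrm2b (0.99 ± 0.11 on top of cisplatin, adjusted p = 2.33e-08).

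**Figure D5:**
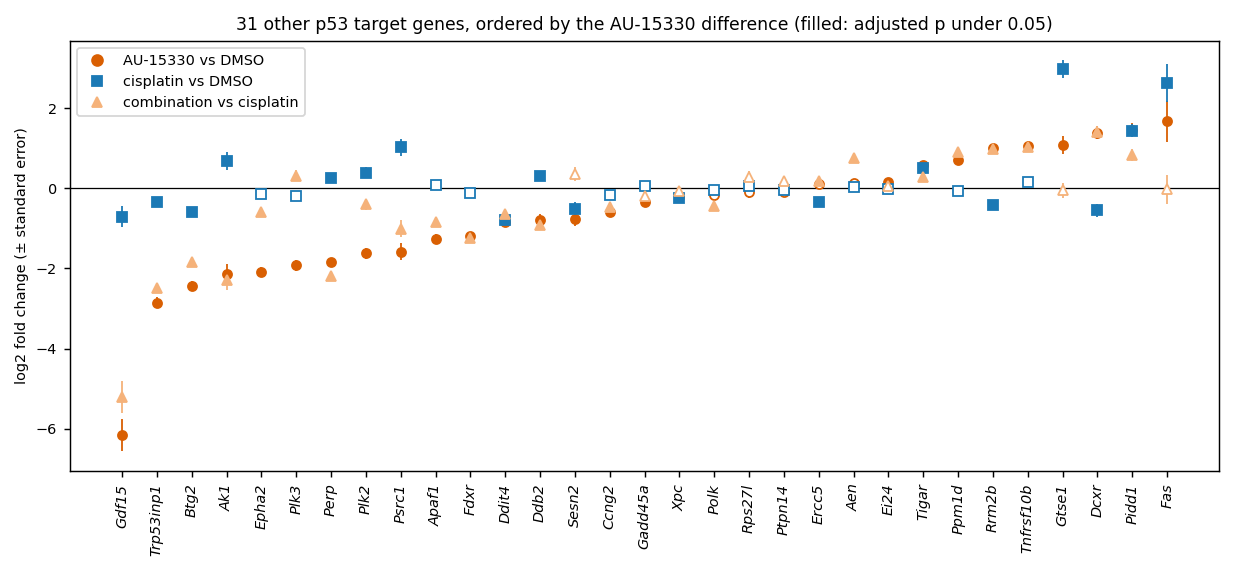
Log2 fold change (± SE) of 31 further p53 target genes for AU-15330 against DMSO (circles), cisplatin against DMSO (squares) and the combination against cisplatin (triangles), ordered by the AU-15330 difference. Filled symbols passed an adjusted p under 0.05 (edgeR). With AU-15330 17 genes fell, down to Gdf15 at −6.16, and 9 rose, up to Fas at 1.67.

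Of 17 regulators and relatives of p53, 15 were tested, and Cdkn2a and Trp73 were not. With cisplatin 4 rose and 2 fell, with AU-15330 7 rose and 3 fell, and on top of cisplatin AU-15330 raised 7 and lowered 4. These 6, 10 and 11 called genes of 15 stand against 51.7%, 73.4% and 68.1% of all tested genes. Cisplatin raised Chek1, a DNA damage checkpoint kinase, from 2.97 to 4.20 CPM to 15.6 to 23.7 CPM (log2 fold change 2.40 ± 0.14, adjusted p = 3.60e-13). It also raised the histone chaperone Daxx (1.39 ± 0.07, adjusted p = 2.81e-15) and the checkpoint kinase Chek2 (0.81 ± 0.11, adjusted p = 1.16e-06), and lowered Trp53bp1, of double-strand break repair (−0.38 ± 0.10, adjusted p = 0.00180), and the ubiquitin ligase Cop1 (−0.36 ± 0.06, adjusted p = 1.28e-05). With AU-15330 the damage kinase Atm rose from 19.5 to 34.9 CPM to 76.4 to 95.9 CPM (1.71 ± 0.14, adjusted p = 1.50e-11).

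Trp63, which encodes the p53 family member p63, was at 5.66 to 9.65 CPM (median 6.25) with DMSO, 4.75 to 8.73 CPM (median 6.18) with cisplatin, 16.2 to 22.6 CPM (median 21.03) with AU-15330 and 15.9 to 20.9 CPM (median 18.1) with the combination. The groups with AU-15330 lay above those without it, as for Ccng1 and Bbc3. Its log2 fold change was 1.58 ± 0.14 with AU-15330 (adjusted p = 1.69e-10) and 1.53 ± 0.14 on top of cisplatin (adjusted p = 3.77e-10), and −0.06 ± 0.15 with cisplatin (adjusted p = 0.737). Chek1 rose with AU-15330 as well (1.39 ± 0.14 alone and 0.79 ± 0.13 on top of cisplatin, adjusted p = 2.79e-09 and 3.88e-06), and so did Atm on top of cisplatin (1.32 ± 0.13, adjusted p = 1.99e-09). Hipk2, a kinase that acts on p53, was lower with AU-15330 (−0.93 ± 0.24 alone and −1.27 ± 0.24 on top of cisplatin, adjusted p = 0.00117 and 4.64e-05). Smaller decreases with AU-15330 were those of Cop1 (−0.40 ± 0.06, adjusted p = 1.15e-06) and the deubiquitinase Usp7 (−0.38 ± 0.06 alone, adjusted p = 1.003e-06, and −0.26 ± 0.06 on top of cisplatin, adjusted p = 1.75e-04). Daxx was also lower on top of cisplatin (−0.28 ± 0.06, adjusted p = 4.36e-04), although AU-15330 alone raised it (0.82 ± 0.07, adjusted p = 1.52e-11).

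The tested genes whose log2 CPM followed Cdkn1a most closely over the 24 libraries were Psat1, an enzyme of serine synthesis (Pearson r = 0.970), and the transcription factors Nfil3 (r = 0.965) and Cebpb (r = 0.964). Their mean levels had the order seen for Cdkn1a, from 329 CPM with DMSO through 200 CPM with cisplatin and 92.2 CPM with the combination to 31.9 CPM with AU-15330 in the case of Psat1. For Mdm2 the closest were Dnajc3 (r = 0.873), Plekha5 (r = 0.862) and Ttll7 (r = 0.851), and for Trp53 Dnaic2 (r = 0.944), A430057M04Rik (r = 0.939) and Tent5b (r = 0.937). Dnaic2 was at a mean of 4.13 CPM with DMSO, 13.1 CPM with cisplatin, 1.42 CPM with AU-15330 and 3.76 CPM with the combination. These correlations describe 24 libraries that fall into 4 treatment groups and share depth and scaling, and they were given no test.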

How the data were processed

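RNA was sequenced from 24 libraries, 6 for each of 4 treatments. Per the submitters' processing notes the authors aligned reads with STAR 2.7.1a to mm10 and used DESeq2 1.36.0. The deposited values are raw read counts per gene symbol, without normalization. The counting tool, strand setting and annotation are not given in the sources used here. The 48 columns were matched to libraries by name with 0 left over, and the 2 lanes of a library were summed; their chi-square over its degrees of freedom was 1.36 to 1.46, while that of replicate pairs had a median of 24.7.

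Genes were tested with edgeR 4.0.16 (R 4.3.3): TMM scaling, filterByExpr, group means, quasi-likelihood F test, 20 residual degrees of freedom, Benjamini-Hochberg adjustment over 12941 genes and a threshold of 0.05. The floor was 3 counts. The comparisons numbered 6, the interaction among them. The genes and lists were chosen with earlier results of these data known. Named genes of the other lists were those called with the 3 highest and the 3 lowest log2 fold changes in 3 comparisons (cisplatin with DMSO, AU-15330 with DMSO, combination with cisplatin), except 1 DREAM gene that is counted but not reported here by name, and the 3 genes correlated most with Cdkn1a, Mdm2 and Trp53. Mki67, the marker genes and the values of other comparisons were added as description.

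Alternatives were DESeq2 1.42.0 (size factors and Wald test), total-count scaling, no filter, a required fold above 1.5, a replicate block, leaving out each replicate, and replicates 4 to 6 alone; leaving out replicates 2 and 3 was added after seeing Sesn1, and no call of Sesn1 is taken from it. Deviations of libraries with the same number correlated over 0.1 in every pair only for combination and AU-15330 (mean 0.212, from the data and not the labels). For libraries with other numbers the mean there was −0.040. In the other comparisons same-numbered libraries also correlated more on average than the rest (for cisplatin and DMSO 0.186 against −0.035). On simulated data for cisplatin with DMSO over 12941 genes, 45 of 65 genes changed 1.5-fold, 63 of 65 changed 2-fold and 62 of 62 changed 4-fold were called, with 4.49% false calls. In the simulation few genes changed, and only in the cisplatin group. The real comparisons called far more genes, so these rates may not carry over to them. Gene positions came from GENCODE M21 (GRCm38) and promoters from RefSeq (GRCm38.p6).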

Additional observations from a re-analysis of the deposited data

Results flagged for a closer look

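In 4 of 40 groups of 6 values 1 library stood apart by Dixon's ratio (the gap to the next value over the range), where chance gives about 2. These were Trp53 in DMSO replicate 2 (ratio 0.759, at 21.6 CPM), Mdm2 in DMSO replicate 1 (0.667, at 63.3 CPM), Ccng1 in cisplatin replicate 3 (0.709, at 95.2 CPM) and Bax in combination replicate 1 (0.739, at 93.1 CPM). Without DMSO replicate 1 and its same-numbered libraries, Mdm2 passed the threshold for cisplatin against DMSO (log2 fold change −0.19, adjusted p = 0.00404, edgeR).

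The cisplatin effect differed with and without AU-15330, by the interaction in edgeR, for Cdkn1a and for 9 further named genes. Of all tested genes 33.7% had a called interaction, and so did 10 of 31 further targets (6 positive, up to 2.24, and 4 negative, down to −1.70) and 3 of 15 regulators. The values below are those of the genes named by the rule, not of all these. On the log2 scale the difference was 3.27 for Cdkn1a (adjusted p = 7.48e-10), 0.60 for Btg2 (adjusted p = 0.00331) and 0.50 for Chek2 (adjusted p = 0.0154). It was negative for Fas (−1.70, adjusted p = 0.0399), Gtse1 (−1.13, adjusted p = 0.00376), Pidd1 (−0.64, adjusted p = 0.0220), Chek1 (−0.60, adjusted p = 0.0170) and Daxx (−1.10, adjusted p = 8.86e-10). Among the DREAM genes it was negative for Brca1 (−1.36, adjusted p = 1.71e-07) and Mcm5 (−0.68, adjusted p = 0.0201).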

How the results depend on the processing

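Over 14 alternatives for the 9 tested genes, 659 of 756 log2 fold changes kept direction and side of the threshold, 51 lost a call, 35 gained one and 11 changed sign, none of these 11 called. The sign changes were Ccng1 for cisplatin against DMSO (0.046 with total counts, −0.061 to 0.019 leaving out 1 replicate), Phlda3 for AU-15330 against DMSO (0.047 in replicates 4 to 6), Trp53 for combination against DMSO (−0.014 with no filter, −0.077 in replicates 4 to 6, −0.065 to 0.11 leaving out 1 replicate), the Mdm2 interaction (0.011 in replicates 4 to 6, −0.067 to 0.029 leaving out 1 replicate) and the Zmat3 interaction (−0.091 to 0.011 leaving out 1 replicate). Total counts moved the median of all genes to 0.13 for AU-15330 against DMSO, 0.10 for combination against cisplatin and 0.14 for combination against DMSO. Requiring a fold above 1.5 left 1 of the 9 genes called with cisplatin, 4 with AU-15330, 2 for combination against cisplatin, 1 for combination against AU-15330 and 3 for combination against DMSO (13.8%, 36.0%, 29.4%, 6.51% and 36.2% of all tested genes), and of the further targets 5, 14, 5 and 15 for cisplatin, combination against cisplatin, combination against AU-15330 and combination against DMSO, and 3 for the interaction, because the requirement is stricter. Replicates 4 to 6 alone gave 8 called genes with cisplatin, 6 for combination against AU-15330 and 2 for the interaction (52.9%, 42.0% and 37.0% of all tested genes); the cause was not tested. The replicate block gave 5 for combination against AU-15330 and 2 for the interaction (Bax added; 47.8% and 41.0% of all tested genes), and moved no other count by over 1.5 times. In the other comparisons same-numbered pairs correlated at 0.1002 to 0.186 on average, with at least 1 pair not over 0.1. DESeq2's Wald test gave 2 for the interaction (Eda2r added; 32.3%). Leaving out 1 replicate gave 3 to 5 (cisplatin), 7 to 8 (AU-15330), 7 to 8 (combination against cisplatin), 2 to 5 (combination against AU-15330; 5 without replicate 1), 7 to 8 (combination against DMSO) and 1 to 2 (interaction; 2 without replicate 2), and for the further targets 11 to 19 with cisplatin, the 11 without replicate 2. Over all tested genes, leaving out 1 replicate gave 45.0% to 52.7% (cisplatin), 69.4% to 74.8% (AU-15330), 63.4% to 69.2% (combination against cisplatin), 34.7% to 43.4% (combination against AU-15330), 69.1% to 74.5% (combination against DMSO) and 25.2% to 35.7% (interaction). Eda2r had too few reads for the low-count filter and was tested only without it and by DESeq2.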
